A study of Homo sapiens with 6 samples.

Results

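The epithelial keratins examined here were 8 genes, KRT7, KRT8, KRT10, KRT18, KRT19, KRT20, KRT23 and KRT80, taken by name from a count table of 60835 gene names with 1 entry for each. RNA came from SW620, a colon cancer line derived from a lymph node metastasis. A set of 3 libraries came from cells with stable knockdown of DNM1 (shDNM1, genotype labelled DNM1 Knockdown) and a set of 3 from cells given a control vector (shControl, genotype labelled WT), and the comparison asks which mRNAs differ when DNM1, the membrane-fission GTPase dynamin 1, is lowered. All libraries came from the same line in high-glucose DMEM with serum, and the labels give neither the knockdown sequence nor whether the cells were 1 clone. The labels place the shDNM1 libraries in batch_B and the shControl libraries in batch_A, so the vector and the batch cannot be told apart in any difference below.

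Keratins are the intermediate filament proteins of epithelial cells. Each filament is built from pairs of an acidic type I and a basic type II chain, and an unpaired chain is degraded, so cells normally make both types together. Simple epithelia such as the intestinal lining are built mainly on KRT8 (type II) with KRT18, KRT19 and, in mature colonocytes and goblet cells, KRT20 (all type I). KRT8, KRT18, KRT19 and KRT20 are the classical keratins of the colon and of colorectal carcinomas, which usually hold little KRT7. KRT10 belongs to the upper layers of the epidermis, KRT23 is a type I keratin of several glandular epithelia, and KRT80 is a type II keratin linked with cell edges and desmosomes.

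The table gave 12844534 to 13537519 counts in a library. DNM1 had 126, 97.8 and 125 CPM in the libraries labelled shDNM1 and 127, 127 and 133 CPM in the shControl libraries, where CPM is the count on a common library total after TMM scaling. The sets did not overlap, although the highest shDNM1 value and the lowest shControl value lay within 1 CPM. The log2 fold change of -0.15 (SE 0.083) did not pass edgeR's quasi-likelihood test at a Benjamini-Hochberg adjusted p of 0.05 (adjusted p = 0.189). It passed without shDNM1 replicate 1 (-0.20, adjusted p = 0.0399). Without shDNM1 replicate 2, the library at 97.8 CPM, it was -0.0373 (adjusted p = 0.718), so the estimate rests largely on that library. The exact two-sided permutation p of 0.1 is the smallest that 3 libraries against 3 can give. The directions below are therefore between libraries as labelled. The epithelial identity of the line was read from 11 colon epithelial markers, whose summed level ran from 1047 to 1136 CPM in shDNM1 and from 1092 to 1146 CPM in shControl. EPCAM, CDH1 and VIL1 each averaged above 300 CPM in both sets and gave most of this sum, which therefore says little about the other markers. CEACAM5, CEACAM6 and LGALS4 averaged under 1 CPM and PHGR1 and FABP1 under 2 CPM in both sets, and CDX1 had no read. Within this list EPCAM was called lower (adjusted p = 0.0288), and CDH1, CDX2 and TFF3 higher (adjusted p = 0.0441, 1.66e-06 and 0.0137). Squamous markers summed to 2.79 to 4.71 CPM in shDNM1 and 4.42 to 5.55 CPM in shControl, with KRT1 and IVL at 0, and 2 of their 9 genes were tested. Immune markers summed to 1.82 to 2.63 CPM in shDNM1 and 4.12 to 4.98 CPM in shControl, with CD3E, MS4A1 and TYROBP at 0. LYZ gave most of the immune sum, at 1.72 CPM in shDNM1 and 3.82 CPM in shControl (adjusted p = 0.00256). Endothelial markers summed to 17.9 to 22.8 CPM in shDNM1 and 16.9 to 20.2 CPM in shControl, with KDR at 0. Fibroblast markers summed to 42.8 to 57.3 CPM in shDNM1 and 31.3 to 38.9 CPM in shControl, with COL3A1 at 0. Nearly all of this came from LUM (32.1 CPM in shDNM1, 23.1 CPM in shControl), COL1A1 (11.9 and 11.1 CPM) and PDGFRB (4.93 and 1.85 CPM). Of these, LUM and PDGFRB were called higher (adjusted p = 0.0121 and 0.000661). The part of these markers in the differences below was not tested.

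The 3 most abundant keratins rose by a small amount in the libraries labelled shDNM1, KRT80 rose with the largest estimate, and KRT23 fell. KRT8, KRT18 and KRT19 were 1.20-fold, 1.23-fold and 1.24-fold higher and KRT80 1.45-fold higher, whereas KRT23 stood at 0.793 of its shControl level. KRT7 and KRT10 did not pass the test, and KRT20 had too few reads to be tested. Of 7 members tested, 4 rose and 1 fell, where 15.6% of the 16744 genes tested were higher, 16.2% lower and 31.9% called in either direction. The CPM ranges of the sets did not overlap for 5 of the 7, against 44.3% of all genes tested, and the same 5 had an unadjusted p under 0.05, against 41.5%. Of the 7, 0 were both called and changed at least 1.5-fold, against 11.7%. The median log2 fold change was 0.30 over the 7 tested members and -0.01 over all genes tested. The members differ widely in depth, and the test sees smaller changes in the abundant ones. In such bulk samples fewer cells with a transcript and less transcript per cell cannot be told apart.

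Promoter windows were available from RefSeq (GRCh38.p14) for 3 of the 8 members and are shown because they cover a member that rose (KRT8), 1 that did not pass (KRT10) and 1 near the detection limit (KRT20). Each runs from 250 bases before to 50 bases after the start RefSeq gives for the gene, on the minus strand, 5′ to 3′. For KRT10 and KRT20 that start is the end of the span given below. For KRT8 it lies inside the longer span deposited with the counts, so the KRT8 window is the promoter of the RefSeq start only. Capitals mark matches, on either strand, to TATAAA (the classical core promoter box), GGGCGG (an SP1-type box), TTTATG (a CDX-type motif), TGANTCA (AP-1), CACCC (KLF-type) and GGAAGT (ETS-type).
KRT8, chr12:52926420-52926719: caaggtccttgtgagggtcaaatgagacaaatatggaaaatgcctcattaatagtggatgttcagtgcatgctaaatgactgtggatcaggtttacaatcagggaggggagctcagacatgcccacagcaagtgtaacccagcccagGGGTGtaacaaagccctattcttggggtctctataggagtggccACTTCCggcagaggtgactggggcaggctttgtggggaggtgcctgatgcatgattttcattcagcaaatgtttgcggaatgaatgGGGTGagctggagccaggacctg
KRT10, chr17:40822565-40822864: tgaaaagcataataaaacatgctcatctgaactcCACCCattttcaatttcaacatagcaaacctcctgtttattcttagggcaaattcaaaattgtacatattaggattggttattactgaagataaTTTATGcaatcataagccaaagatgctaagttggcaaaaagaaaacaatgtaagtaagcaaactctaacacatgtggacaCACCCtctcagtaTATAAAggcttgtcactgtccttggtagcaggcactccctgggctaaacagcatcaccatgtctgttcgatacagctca
KRT20, chr17:40885193-40885492: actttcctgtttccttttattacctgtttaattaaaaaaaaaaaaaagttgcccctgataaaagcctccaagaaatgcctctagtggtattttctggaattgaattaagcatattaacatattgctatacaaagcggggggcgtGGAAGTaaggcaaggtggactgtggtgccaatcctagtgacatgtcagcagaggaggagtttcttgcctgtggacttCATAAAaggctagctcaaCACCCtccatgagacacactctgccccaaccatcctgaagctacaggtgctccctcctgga
The KRT8 window held 2 CACCC matches and 1 GGAAGT match, read on the opposite strand, and no TATAAA. The KRT10 window held TATAAA starting 29 bases before the gene start, 1 TTTATG and 2 CACCC. In KRT20 a TTTATG match on the opposite strand starts 29 bases before the gene start, and there was 1 CACCC and 1 GGAAGT. None of these windows held GGGCGG or TGANTCA. Over 35116 RefSeq promoter windows of the same length, TATAAA was present in 11.5%, GGGCGG in 45.0%, TTTATG in 10.6%, TGANTCA in 7.71%, CACCC in 59.9% and GGAAGT in 22.8%. The KRT8, KRT10 and KRT20 windows were 50.7%, 37.7% and 44.0% G or C, against a median of 58.7%.

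On the deposited TPM scale, which allows levels to be compared between genes because it divides by length, 3 genes carried the keratin mRNA of these cells. KRT8 averaged 7091 ± 213 TPM in shDNM1 and 6148 ± 199 TPM in shControl (SD, n = 3), and ranked 5 and 6 among all genes of the table. KRT18 averaged 2289 ± 153 and KRT19 2078 ± 128 TPM in shDNM1, and KRT18 averaged 1943 ± 71.1 and KRT19 1744 ± 123 TPM in shControl. The ranges of this pair overlapped in shDNM1 (KRT18 from 2125 to 2429 TPM, KRT19 from 1941 to 2195 TPM) but not in shControl (KRT18 from 1862 to 1994 TPM, KRT19 from 1602 to 1818 TPM). KRT80 came next with 248.5 ± 13.9 TPM in shDNM1 and 178 ± 9.47 TPM in shControl. Then followed KRT23, KRT10 and KRT7. In shDNM1 their TPM values ran from 23.2 to 31.3 for KRT23, from 20.9 to 27.5 for KRT10 and from 16.8 to 24.3 for KRT7, so that neighbours in this order overlapped. In shControl KRT23 ran from 33.0 to 38.1 TPM, KRT10 from 23.4 to 30.5 TPM and KRT7 from 15.5 to 19.4 TPM, and no neighbours overlapped. KRT20, a marker of mature colon epithelium, was lowest at 0.756 ± 0.11 TPM in shDNM1 and 1.69 ± 0.79 TPM in shControl. KRT8, KRT18 and KRT19 together made up 97.3% of the summed TPM of the 8 members in shDNM1 and 97.4% in shControl.

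**Figure D1:**
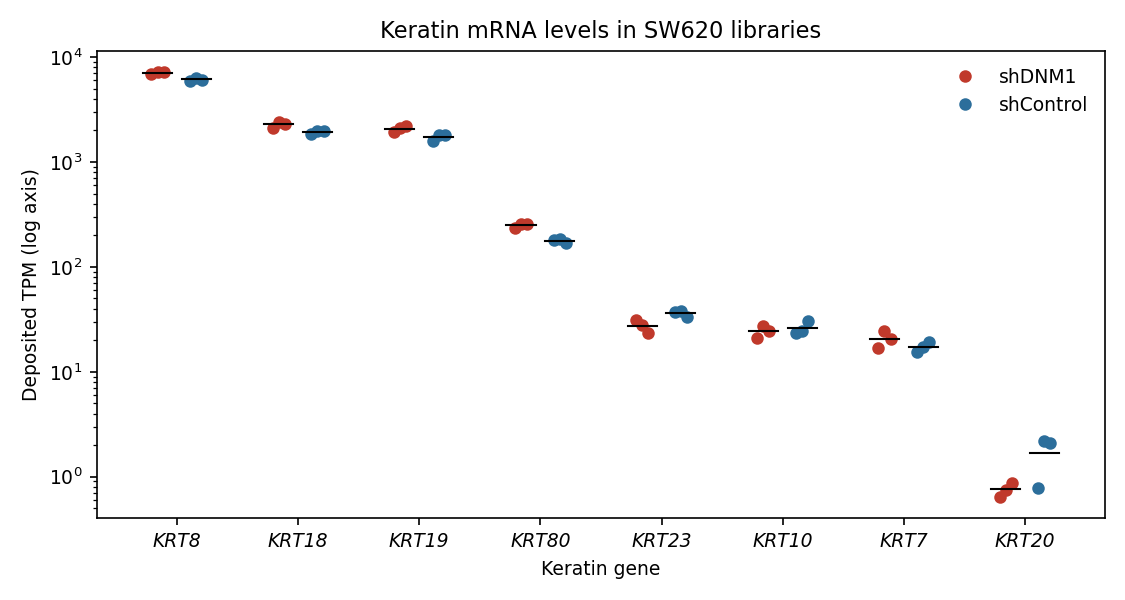
Deposited TPM (log axis) of the 8 keratin genes, with 1 point per library, shDNM1 in red and shControl in blue, and a bar at each mean. KRT8, KRT18, KRT19 and KRT80 lie higher in every shDNM1 library than in any shControl library, KRT23 lower, and KRT7, KRT10 and KRT20 overlap.

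KRT8 (ENSG00000170421, GRCh38 chromosome 12, 52897187 to 52949954, minus strand), the main type II chain of simple epithelia, had 6536, 7313 and 6967 CPM in shDNM1 and 5523, 6051 and 5754 CPM in shControl. Each shDNM1 library lay above each shControl library. The log2 fold change was 0.26 (SE 0.064, 95% interval 0.13 to 0.40, adjusted p = 0.00408). On log2(TPM + 1) the change was 0.21 and the call was lost (limma adjusted p = 0.0736). KRT8 alone took 0.683% of all counts in shDNM1 and 0.583% in shControl.

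KRT18 (ENSG00000111057, chromosome 12, 52948871 to 52952906, plus strand), the main partner of KRT8 and a type I gene that lies at the type II locus, had 1481, 1795 and 1631 CPM in shDNM1 and 1258, 1384 and 1354 CPM in shControl. The groups did not overlap, and the log2 fold change was 0.30 (SE 0.071, adjusted p = 0.00345). KRT19 (ENSG00000171345, chromosome 17, 41523617 to 41528308, minus strand), the smallest keratin, which has almost no tail domain, had 900.3, 1032 and 1031 CPM in shDNM1 and 721, 840 and 828 CPM in shControl. The lowest shDNM1 library stood above the highest shControl library here too, and the log2 fold change was 0.31 (SE 0.072, adjusted p = 0.00276). In KRT8, KRT18 and KRT19 replicate 1 was the lowest library of its set, in both sets.

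KRT80 (ENSG00000167767, chromosome 12, 52168996 to 52192014, minus strand) had 302, 357 and 334 CPM in shDNM1 and 229, 240 and 214 CPM in shControl. It had the largest fold change of the 7 tested members, a log2 fold change of 0.54 (SE 0.070, 95% interval 0.39 to 0.69, adjusted p = 1.07e-05), and 19.7% of all genes tested had a larger one in either direction. Its call held under each of 17 alternative settings that test for any change, with a log2 fold change between 0.48 and 0.60, but was lost against a minimum change of 1.5-fold. The intervals of KRT80 and KRT8 touched, at 0.39 and 0.40, and the difference between the fold changes was not tested. Within libraries the TPM of KRT80 relative to KRT8 was 0.0340, 0.0359 and 0.0352 in shDNM1 and 0.0305, 0.0291 and 0.0273 in shControl, without overlap.

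KRT23 (ENSG00000108244, chromosome 17, 40922700 to 40937646, minus strand) was the member that fell. It had 23.1, 21.9 and 17.3 CPM in shDNM1 and 26.5, 28.0 and 24.0 CPM in shControl, and the sets were separated by less than 1 CPM. The log2 fold change was -0.33 (SE 0.11, 95% interval -0.57 to -0.09, adjusted p = 0.0320). The call was lost without shDNM1 replicate 3 (adjusted p = 0.173), without shControl replicate 1 (adjusted p = 0.103), without shControl replicate 2 (adjusted p = 0.122) and with DESeq2 (adjusted p = 0.0586), and without shDNM1 replicate 3 the log2 fold change was -0.22. A gene on the opposite strand, AC004231.1, spans the whole of KRT23. It had 96 counts over all libraries, against 1837 for KRT23, and a log2 fold change of -2.37 (adjusted p = 0.00022), and reads of the 2 genes cannot be told apart unless strand was used in counting, which is not stated.

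KRT7 (ENSG00000135480, chromosome 12, 52232520 to 52252186, plus strand), the type II chain of ducts and glands, had 9.09, 14.0 and 11.2 CPM in shDNM1 and 8.13, 9.28 and 10.3 CPM in shControl. The groups overlapped and the log2 fold change of 0.30 (SE 0.16, 95% interval -0.04 to 0.65) did not pass (adjusted p = 0.175). Without shDNM1 replicate 1, its lowest shDNM1 library, the log2 fold change was 0.44 and passed (adjusted p = 0.0326). Without shDNM1 replicate 2, its highest, the log2 fold change was 0.13 and did not pass (adjusted p = 0.589). KRT86, on the same strand, overlaps KRT7 by 2887 bases and had 1405 counts over all libraries, against 805 for KRT7. The log2 fold change of KRT86 was 1.27, and strand cannot separate reads in the overlap. The KRT7 estimate was of the size of those of KRT18 and KRT19, with a wider interval, and its p does not show that it differed from them.

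KRT10 (ENSG00000186395, chromosome 17, 40818117 to 40822614, minus strand) had 15.1, 21.0 and 17.8 CPM in shDNM1 and 16.4, 17.6 and 21.7 CPM in shControl. The groups overlapped, and the log2 fold change of -0.05 (SE 0.14, 95% interval -0.33 to 0.24) did not pass (adjusted p = 0.829). Its sign turned positive without shDNM1 replicate 1 or without shControl replicate 3. The antisense gene KRT10-AS1 covers 3514 of the 4498 bases of KRT10. KRT10-AS1 had 453 counts over all libraries against 1426 for KRT10, and a log2 fold change of -0.72 (adjusted p = 0.00996).

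KRT20 (ENSG00000171431, chromosome 17, 40875889 to 40885242, minus strand) had 5, 6 and 7 counts in shDNM1 and 6, 18 and 16 counts in shControl. The ranges overlapped, with shControl replicate 1 as low as the shDNM1 libraries and the other shControl libraries above them. Too few libraries reached the count minimum for KRT20 to be tested with all 6 libraries. With no low-count filter its log2 fold change was -1.10 (SE 0.52, adjusted p = 0.160), and without shControl replicate 1 it entered the test at -1.43 (adjusted p = 0.0452). It also entered without shDNM1 replicate 1, 2 or 3, at -0.98, -1.11 and -1.20, and did not pass (adjusted p = 0.200, 0.160 and 0.155). At this depth a difference in KRT20 was not shown.

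**Figure D2:**
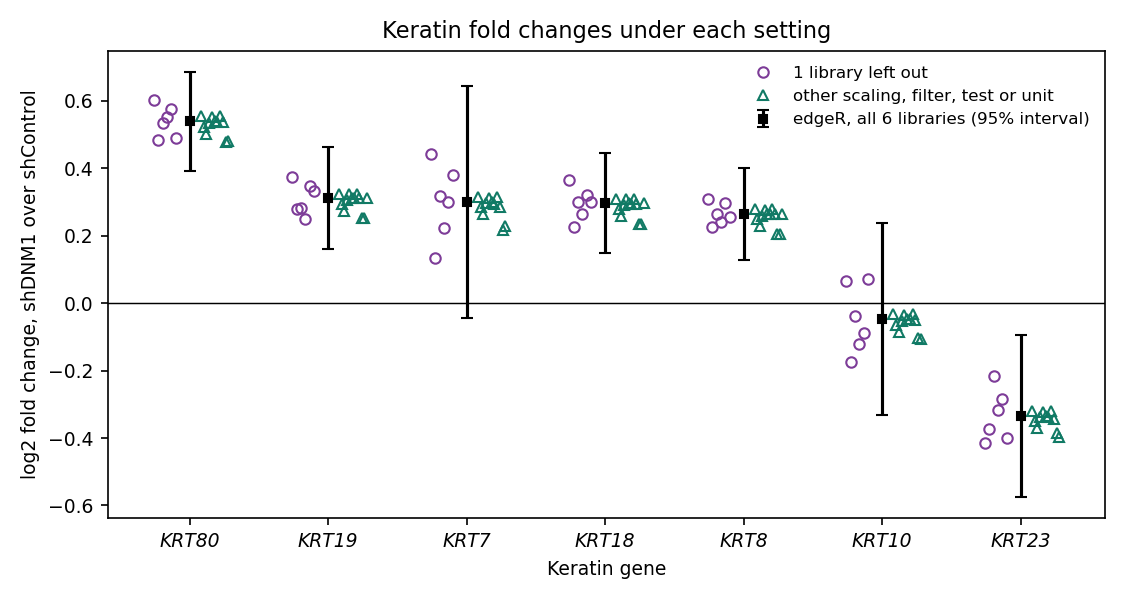
The log2 fold change (shDNM1 over shControl) of the 7 tested keratins: black squares are the edgeR estimate with its 95% interval, purple circles leave out 1 library each, and green triangles change the scaling, filter, test or unit. KRT80, KRT19, KRT18 and KRT8 stay above 0 throughout, KRT23 stays below 0, and KRT10 lies on both sides of 0.

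The ratios of KRT8 to KRT18, KRT19 to KRT18 and type II to type I overlapped between the sets. KRT18 and KRT19 are both type I, so their ratio is not between filament partners. The TPM ratio of KRT8 to KRT18 was 3.22, 2.97 and 3.12 in shDNM1 and 3.20, 3.19 and 3.10 in shControl, and the ratio of KRT19 to KRT18 was 0.913, 0.864 and 0.949 in shDNM1 and 0.860, 0.912 and 0.919 in shControl. Summed over the 8 members, type II to type I stood at 1.67 ± 0.048 in shDNM1 and 1.69 ± 0.055 in shControl (SD, n = 3). The sums themselves were higher in shDNM1, 7360 ± 230 against 6344 ± 203 TPM for type II and 4420 ± 261 against 3751 ± 196 TPM for type I, with no overlap. Within type II the share of KRT80 was 3.37% ± 0.086 in shDNM1 and 2.81% ± 0.15 in shControl. These sums and ratios are over chosen genes and carry no test.

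**Figure D3:**
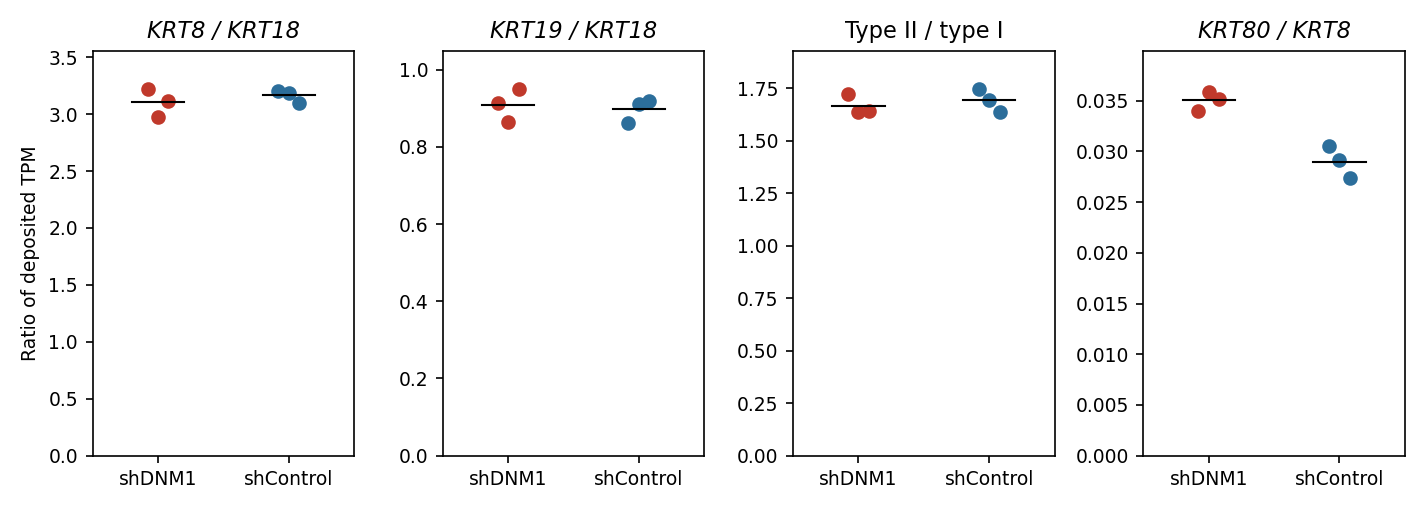
Ratios of deposited TPM within each library, with shDNM1 in red and shControl in blue, bars at the means and each axis from 0. KRT8 to KRT18, KRT19 to KRT18 and type II to type I overlap between the sets, whereas KRT80 to KRT8 lies between 0.0340 and 0.0359 in shDNM1 and between 0.0273 and 0.0305 in shControl.

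Shared sequence sets a limit for KRT8 and KRT18, which have many processed pseudogenes. Of the 50-base stretches of the principal GENCODE transcript, 32.7% for KRT8 and 31.8% for KRT18 also occur exactly in transcripts of other genes, for KRT18 in 43 genes that are all named as its pseudogenes. The share was 1.79% for KRT19, 0.997% for KRT7, 0.420% for KRT80 and 0 for KRT10, KRT20 and KRT23. The 16 shared stretches of KRT80 occur in KRT8 and KRT8P3. KRT8 had 496401 counts over all libraries against 21785 for KRT80, and the effect on KRT80 was not tested. The pseudogene rows together held at most 0.556% of the KRT8 count and 0.528% of the KRT18 count in any library. With their counts added, the log2 fold changes of KRT8 and KRT18 were 0.26 and 0.30, but counts this small could hardly move them. How reads that match several genes were counted is not stated. KRT8 and KRT18 lie on opposite strands and their annotated spans overlap by 1084 bases.

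The other keratins of the table numbered 60, counting rows named as pseudogenes, and 11 had enough reads to be tested. Of these 11, which include the pseudogenes KRT87P and KRT88P, 4 rose, 3 fell and 4 did not pass. The share called was 63.6%, against 31.9% of all genes tested. The hair keratins KRT81 and KRT86 rose most: KRT81 averaged 50.8 ± 3.44 CPM in shDNM1 and 15.8 ± 1.30 CPM in shControl (3.21-fold, adjusted p = 6.06e-10), and KRT86 averaged 25.6 ± 5.41 CPM in shDNM1 and 10.6 ± 0.48 CPM in shControl (2.41-fold, adjusted p = 2.35e-06). KRT81 and KRT86 are close paralogs and KRT86 as annotated spans all of KRT81 and part of KRT7, so the counts of KRT81, KRT86 and KRT7 are uncertain. KRT15, a keratin of basal and stem cells in stratified epithelia, was 1.71-fold higher at 28.5 ± 1.5 CPM in shDNM1 and 16.7 ± 2.42 CPM in shControl (adjusted p = 4.07e-05), and KRT17, an injury-induced keratin, was 1.75-fold higher at 5.65 ± 0.15 CPM in shDNM1 and 3.23 ± 0.28 CPM in shControl (adjusted p = 0.00405).

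The 3 that fell were type I genes. KRT40, a hair keratin, averaged 9.08 ± 1.74 CPM in shDNM1 and 18.4 ± 1.26 CPM in shControl (adjusted p = 2.42e-05). KRT39 averaged 1.59 ± 0.82 CPM in shDNM1 and 3.51 ± 0.88 CPM in shControl (adjusted p = 0.0142), and KRT16, a stress keratin of skin, 0.700 ± 0.017 CPM in shDNM1 and 1.72 ± 0.44 CPM in shControl (adjusted p = 0.0131). The KRT39 call was lost without shDNM1 replicate 2 or shControl replicate 1 (adjusted p = 0.0589 and 0.0945), and that of KRT16 without shControl replicate 2 or 3 (adjusted p = 0.0511 and 0.0813). KRT5, the type II chain of basal cells, at 1.26 ± 0.65 CPM in shDNM1 and 2.48 ± 0.66 CPM in shControl, lay just outside the threshold (adjusted p = 0.0507) and passed under 6 of 17 alternatives, among them without shDNM1 replicate 3 (adjusted p = 0.0152) and without shControl replicate 2 (adjusted p = 0.0355). The pseudogenes KRT87P and KRT88P did not pass (adjusted p = 0.642 and 0.756). By position, the 10 tested keratins of chromosome 12, with KRT87P and KRT88P counted, gave 5 rises and no fall. The 8 of chromosome 17 gave 3 rises and 4 falls, where 15.6% of all genes tested were higher and 16.2% lower. The difference between the loci was not tested. KRT23, KRT39 and KRT40, which fell, are consecutive keratin genes on chromosome 17, and KRT15 and KRT19, which rose, are adjacent. KRT16 and KRT17, also adjacent there, went opposite ways (log2 fold changes -1.28 and 0.80).

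**Figure D4:**
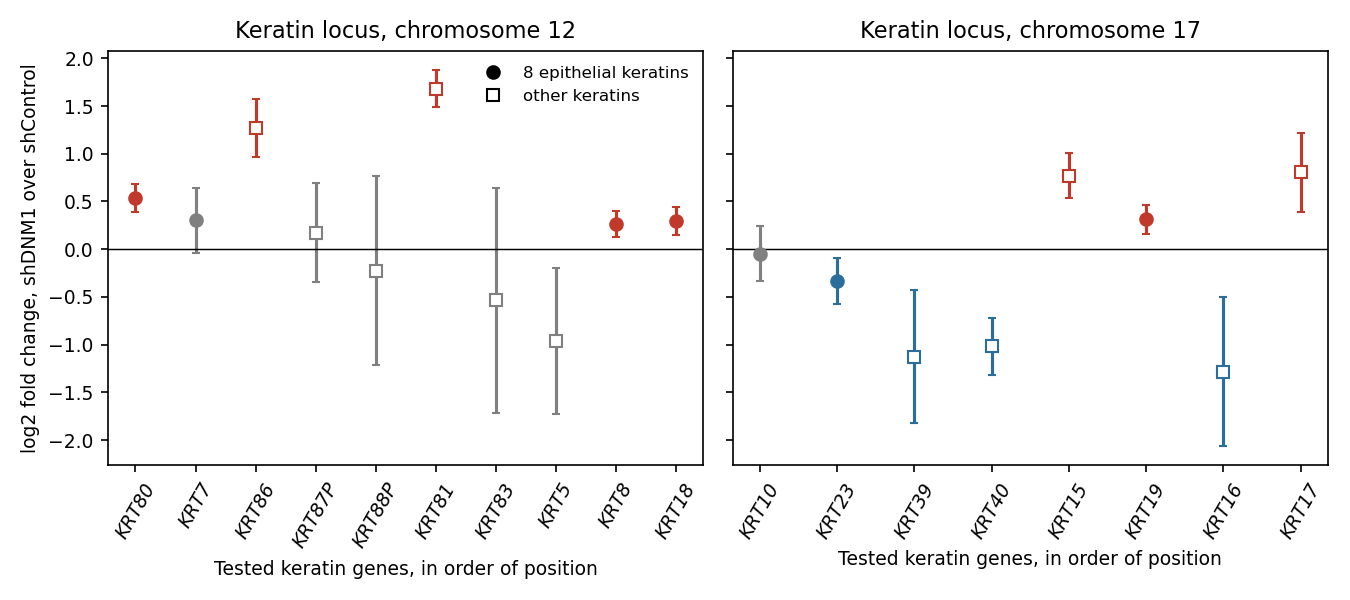
The log2 fold change (shDNM1 over shControl) with 95% intervals of the tested keratin genes in order of position at the chromosome 12 and chromosome 17 loci. Filled circles are the 8 epithelial keratins where tested and open squares other keratins; red passed the test higher, blue lower and grey did not pass.

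Among 137 further pseudogene rows, named as a keratin followed by P and a number, 6 were tested and 1 was called. That is 16.7%, against 31.9% of all genes tested. KRT8P3, which shares 19.0% of the 50-base stretches of KRT8, averaged 18.6 ± 5.26 CPM in shDNM1 and 13.7 ± 0.35 CPM in shControl (log2 fold change 0.44, adjusted p = 0.0373). The call was lost under 8 of 17 alternatives, with a log2 fold change of 0.19 without shDNM1 replicate 2 (adjusted p = 0.284) and adjusted p values of 0.0950, 0.0826 and 0.0773 without shControl replicate 1, 2 or 3. KRT8P10, KRT8P39 and KRT18P4 had log2 fold changes of 1.18, 0.58 and -0.56 and did not pass.

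Genes that anchor keratins to desmosomes and hemidesmosomes changed in both directions. Of 20 listed, 15 were tested, 4 rose, 4 fell and 7 did not pass, with a median log2 fold change of -0.10. Those called made up 53.3% of the tested ones, against 31.9% of all genes tested, whose median was -0.01. EPPK1 (epiplakin), a keratin-binding plakin, averaged 111 ± 4.15 CPM in shDNM1 and 47.9 ± 2.06 CPM in shControl (2.32-fold, adjusted p = 7.34e-10), and PLEC (plectin), a plakin that ties filaments to junctions and to other cytoskeletal fibres, 2875 ± 211 CPM in shDNM1 and 1925 ± 55.1 CPM in shControl (1.49-fold, adjusted p = 2.28e-06). The desmosome plaque genes JUP and PKP3 were 1.47-fold and 1.24-fold higher (adjusted p = 2.84e-06 and 0.00124). PERP, a desmosome-associated membrane protein, stood at 0.683 of its shControl level (adjusted p = 1.27e-06) and PKP4 at 0.784 (adjusted p = 0.000737). The desmosomal cadherin gene DSG2 and the plakin gene PPL stood at 0.869 and 0.879 (adjusted p = 0.0202 and 0.0277). The DSG2 call was lost without shDNM1 replicate 3 or shControl replicate 1 or 2, and that of PPL without shDNM1 replicate 3 or any 1 of the shControl libraries, with adjusted p values from 0.0592 to 0.117 over both genes.

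Of 15 intermediate filament genes that are not keratins, 8 were tested, 2 rose and 5 fell, with a median log2 fold change of -0.41. That is 87.5% called, against 31.9% of all genes tested, whose median was -0.01. The nuclear lamina genes LMNB1 and LMNB2 averaged 151 ± 15.9 and 290 ± 31.5 CPM in shDNM1, against 274 ± 5.12 and 409 ± 9.47 CPM in shControl (0.551 and 0.708 of shControl, adjusted p = 6.07e-08 and 3.41e-05). VIM, the vimentin of mesenchymal cells, stood at 0.805 (83.8 ± 7.76 CPM in shDNM1 and 104 ± 4.49 CPM in shControl, adjusted p = 0.00330). BFSP1 and SYNM also fell, both under 10 CPM. NES (nestin) was 1.42-fold higher at 326 ± 26.5 CPM in shDNM1 and 231 ± 11.8 CPM in shControl (adjusted p = 1.99e-05), and DES (desmin) 3.77-fold higher at 5.93 ± 0.82 CPM in shDNM1 and 1.57 ± 0.24 CPM in shControl (adjusted p = 7.20e-06). These 7 calls held under all 17 alternatives that test for any change, which leave out the test against a minimum change of 1.5-fold.

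In the list of proteins that bind, modify or cleave keratins, 4 of 16 rose and 4 fell, with 8 not passing and a median log2 fold change of -0.05. Called genes made up 50% of this list, against 31.9% of all genes tested, whose median was -0.01. SFN, the 14-3-3 sigma protein of epithelia, was 2.04-fold higher (179 ± 18.1 CPM in shDNM1 and 87.6 ± 6.40 CPM in shControl, adjusted p = 2.37e-08), whereas YWHAE, another 14-3-3 gene, stood at 0.495 of its shControl level (519 ± 33.3 CPM in shDNM1 and 1049 ± 34.8 CPM in shControl, adjusted p = 2.04e-09). TCHP (trichoplein), which binds KRT8 and KRT18, stood at 0.568 (adjusted p = 3.16e-05), and the small heat shock protein gene HSPB1 at 0.597 (adjusted p = 2.74e-06). FAM83H, which binds keratin filaments, rose 1.19-fold (adjusted p = 0.0157), with CPM ranges that overlapped between the sets. Its call was lost on log2(TPM + 1) and log2(TPM + 0.1) (limma adjusted p = 0.0966 and 0.0984). The chaperone gene HSPA8 stood at 0.864 (adjusted p = 0.0148). Without shControl replicate 3, 5 members of this list were called, with HSPA8 and FAM83H among those lost (adjusted p = 0.0637 and 0.0845). HSPA8 was also lost without shDNM1 replicate 3 or shControl replicate 1 (adjusted p = 0.0937 and 0.0626), and FAM83H without shDNM1 replicate 2 or 3 or shControl replicate 2 (adjusted p = 0.0688, 0.0653 and 0.0648).

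Of 16 intestinal and epithelial transcription factors, 11 were tested, 3 rose, 1 fell and 7 did not pass, with a median log2 fold change of 0.10. The share called was 36.4%, near the 31.9% of all genes tested. CDX2, the intestinal homeobox factor, averaged 19.9 ± 1.48 CPM in shDNM1 and 8.06 ± 1.49 CPM in shControl (2.47-fold, adjusted p = 1.66e-06). KLF5, a zinc finger factor of crypt epithelium, was 1.24-fold higher (437 ± 8.89 CPM in shDNM1 and 353 ± 11.4 CPM in shControl, adjusted p = 0.000493). HNF4A was 1.19-fold higher (adjusted p = 0.0124), but not called on log2(TPM + 1) or log2(TPM + 0.1) (limma adjusted p = 0.0724 and 0.0742). The HNF4A call was lost without shDNM1 replicate 3 or shControl replicate 3 (adjusted p = 0.0800 and 0.0673). Without either of these libraries 2 members of the list were called.

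The genes whose profile over the 6 libraries lay closest to each called keratin were found among 8433 protein-coding genes by the root mean square difference of log2 CPM after centring each gene on its mean. KRT8 was closest to TBRG4, GOLGA2 and TSPAN13 (0.0173, 0.0190 and 0.0205), KRT18 had EIF6 and LSM11 among its closest (0.0262 and 0.0269) and KRT19 was closest to PHF13, CAVIN1 and LSM11 (0.0225, 0.0260 and 0.0321). KRT80 was closest to M6PR (0.00652), then POLR3A and BICD2 (0.0337 and 0.0338), and KRT23 to ATP9B, LDAH and ZNF557 (0.0466, 0.0609 and 0.0691). Ranked by closeness to KRT18, KRT8 came at position 29 and KRT19 at position 83 of 8433. From KRT18 their differences were 0.0393 and 0.0502, against 0.137 for KRT80. By closeness to KRT8, KRT18 came at position 83 and KRT19 at position 319. With only 6 libraries in 2 sets, this measure mostly follows the difference between the sets.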

How the data were processed

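Groups of 3 libraries each follow the titles of the 6 SW620 samples. RNeasy extraction and SMARTER mRNA-seq library preparation are named in the labels' protocols. Read counts per gene were used as deposited, without normalisation; the submitters' processing notes name GRCh38. Which aligner, counter, annotation and strand setting were used is not given in the sources used here. The deposited TPM table was entered as a score, because its columns sum to more than 1000000 as deposited; over unique gene names they sum to 1000000. Of the lines in each, 2328 shared 453 names with identical values and were collapsed to 1 line per name. The number of unused sample columns was 0.

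Counts were tested with edgeR 4.0.16 in R 4.3.3: filterByExpr at its defaults (a minimum count of 10), TMM scaling, and the two-sided quasi-likelihood F test with Benjamini-Hochberg adjustment over 16744 genes at a threshold of 0.05. SE and intervals were derived from the F statistic. The test was also run on counts simulated from these libraries, with no batch and far fewer changed genes than were called here. That run does not check the calls above. Within-group library pairs differed by more than counting noise (chi-square per gene 2.28 to 7.13, against 16.2 to 19.9 between groups), so no library was treated as a repeat. No label says that replicates came from separate cultures, so p-values measure only the spread between these libraries. Named genes were all members, up to 4 per list with the smallest p and called members against the list's majority, other keratins of at least 1 CPM, and the 3 nearest profiles; further called list members were named to complete counts. The members and lists were chosen with earlier results of these data known. Alternatives were other scalings and filters, DESeq2 1.42.0, limma 3.58.1 on voom or log2 TPM values, a robust fit, a replicate block, added pseudogene counts, stricter thresholds and leaving out each library. Gene positions and strands were those deposited with the counts. Shared 50-base stretches came from GENCODE release 29 on GRCh38, which may not be the annotation the authors counted on. Protein sequences were not used here. Values of some called list members and of 1 nearest profile are not reported here.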

Additional observations from a re-analysis of the deposited data

How the results depend on the processing

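KRT80, KRT18 and KRT19 kept their direction under every alternative run, and their call under all but the test against a minimum change of 1.5-fold. KRT8 lost its call there too, and also on log2(TPM + 1) and log2(TPM + 0.1), where its log2 fold change was 0.206 in each (adjusted p = 0.0736 and 0.0501). KRT23 kept its direction but lost its call with DESeq2 (-0.32). Leaving out 1 library at a time gave log2 fold changes of 0.13 to 0.44 for KRT7, 0.23 to 0.31 for KRT8 and 0.48 to 0.60 for KRT80. The same runs gave -0.17 to 0.0715 for KRT10, 0.22 to 0.37 for KRT18, 0.25 to 0.38 for KRT19 and -0.41 to -0.22 for KRT23. For DNM1 they gave -0.20 to -0.0373. DNM1 passed without shDNM1 replicate 1 (adjusted p = 0.0399) and was at -0.0373 without shDNM1 replicate 2 (adjusted p = 0.718). KRT10 turned positive without shDNM1 replicate 1 (0.0669) and without shControl replicate 3 (0.0715).

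Against a minimum change of 1.5-fold (glmTreat) 0 keratin members were called higher and 0 lower, where 251 genes were called higher and 340 lower in all. At an adjusted p of 0.01, 0 members were called lower, and 1739 genes were higher and 1764 lower; DESeq2 also called 0 members lower. Leaving out 1 library gave 4 to 5 members higher, 0 to 1 lower, 1903 to 2939 genes higher and 2034 to 2951 lower, 5 to 9 called genes for keratin binding and turnover, 2 to 4 for transcription factors and 0 to 1 for pseudogenes. The 1 pseudogene call was also lost (0 called) with library size alone, limma-voom and both TPM settings. The KRT8 to KRT18 ratio of shDNM1 to shControl stayed between 0.962 and 1.00. Deviations from the set means correlated little between libraries of the same number (0.102, 0.0634 and -0.0330 for numbers 1 to 3). Such low values do not exclude pairing, and no label states it. With the replicate block no member's call changed, and the log2 fold changes were 0.26 for KRT8, 0.54 for KRT80 and -0.34 for KRT23. That edgeR fit called 2964 genes higher and 3116 lower, against 2617 and 2720 without the block. Its adjusted p was 4.54e-05 for KRT8 and 2.39e-05 for KRT18, against 0.00408 and 0.00345 without the block. Depth limits KRT20, with 58 counts in all 6 libraries, most.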
